A study of Drosophila melanogaster with 43 samples.

Results

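Long stretches of the fly genome that carried assembled RNA but no gene name were examined in head extract. The expression tables of 8 head libraries list, per gene or assembled locus, an FPKM value (sequenced fragments scaled by locus length and library size). A row was taken when it had no gene name, spanned at least 1000 bp and lay on a sequence whose name holds neither Het nor U nor mitochondrion. This gave 3020 rows of 194529 in the tables, or of the 75248 unnamed rows on the sequences allowed. Rows of different libraries that overlapped each other by at least 50% of both lengths were joined, which gave 1630 loci among 49480 matched features, the others being 14447 named features and 33403 other unnamed loci. The choice used length and naming but no expression value. A sequence called M passed the wording of the rule and holds 4 rows in 3 loci, which were kept.

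The libraries came from heads of Drosophila melanogaster of the genotype Orb2 WT-GFP, raised on semi-defined medium at 25 °C. All of them carry this genotype, so no untagged control is in the comparison. Head extract was treated with biotinylated isoxazole (b-isox), and RNA was sequenced from the precipitate (4 pellet libraries) and from what stayed in solution (4 supernatant libraries). Pellet and supernatant libraries of replicates 5 and 6 were assembled without gene names and serve below as a separate look. Whether replicates are separate groups of flies is not given in the labels, so each p-value rests on a spread between libraries that could be technical in part. A head mixes neurons, photoreceptors, glia, fat body and muscle, and in such samples fewer cells of a type and less RNA per cell cannot be told apart.

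As background, b-isox gathers proteins with low-complexity domains together with the RNA they bind, much as RNA granules form in cells, and Orb2 is a fly CPEB protein that binds messenger RNA and controls its translation, including at synapses. An assembled row without a name is a stretch where reads joined into a continuous transcript that the annotation did not cover. Such a stretch can be an intron, an unannotated exon or end of a gene, or a separate noncoding RNA. The tables give no strand or exon structure for these rows, so exon, intron and untranslated region cannot be told apart here. Coordinates are 1-based on genome build dm3, and no genome sequence of that build was used, so none is printed.

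Most of the loci were short, lay inside named genes and were listed by few libraries. The median length was 1238.5 bp, and 1418 loci (87.0%) spanned 1 to 2 kb, 128 spanned 2 to 5 kb, 41 spanned 5 to 10 kb and 43 spanned 10 kb or more. By position, 1295 loci (79.4%) lay inside the span of a named gene and 39 overlapped one in part. Another 94 lay within 1 kb of a named gene, 143 lay 1 to 10 kb away, and 56 lay farther than 10 kb. Named gene spans covered 83.2 of 120 Mb, or 69.2%, of the same sequences. For 1009 of the loci inside a gene, the shortest gene around them was one known only from an assembled row, whose span can join neighbouring genes. When gene spans were taken only from rows with a FlyBase identifier, 298 loci (23.0%) of the 1295 lay inside one.

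The 3 rows just inside the length limit spanned 1000 bp and stood at 17.2, 8.61 and 1.38 FPKM. The 3 just outside spanned 999 bp and stood at 2.67, 2.35 and 9.43 FPKM. The values on both sides of the limit overlapped.

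Long unnamed rows were more numerous in the pellet, by a factor of 3.89. Supernatants 1 to 4 listed 150, 93, 234 and 141 of them, and pellets 1 to 4 listed 410, 544, 1076 and 372. The groups did not overlap: the supernatant with the most rows stayed below the pellet with the fewest. The means were 154.5 ± 58.6 and 600.5 ± 325 rows (SD, n = 4 each), and the difference gave p = 0.0286 in an exact permutation test over libraries, two-sided, which is the smallest p that 70 arrangements allow (Benjamini-Hochberg adjusted 0.0357 over 5 such measures). The arrangements exchanged libraries freely between fractions and did not keep the replicate numbers together. The exact permutation p-values here and below thus take no account of pairing by number. Pellet 3 alone listed 610 loci found in no other library. Without pellet 3 the difference of means was 287.5 rows instead of 446, and with 4 against 3 libraries the exact permutation test cannot go below p = 0.0571.

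Pellets also held a larger share of their long rows inside genes. Inside gene spans, supernatants listed 81, 56, 173 and 92 long rows and pellets 325, 456, 879 and 304 (exact permutation p = 0.0286, two-sided). Elsewhere, supernatants listed 69, 37, 61 and 49 and pellets 85, 88, 197 and 68, where supernatant 1 stood above pellet 4 (exact permutation p = 0.0571, two-sided). Within each replicate number, the pellet listed more rows than the supernatant in 4 of 4 cases, inside genes and elsewhere. As a share, 54.0%, 60.2%, 73.9% and 65.2% of the long rows of supernatants lay inside genes, against 79.3%, 83.8%, 81.7% and 81.7% in pellets, again without overlap (exact permutation p = 0.0286, two-sided). The share of all unnamed rows that were long was 2.31%, 2.05%, 2.33% and 1.25% in supernatants and 4.84%, 8.71%, 6.67% and 3.09% in pellets (exact permutation p = 0.0286, two-sided). The confidence intervals in the tables imply 33.6 to 86.1 fragments per FPKM and kilobase in supernatants and 18.6 to 42.9 in pellets, ranges that overlap. Read depth itself is unknown, and its part in the number of long rows was not tested.

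**Figure D1:**
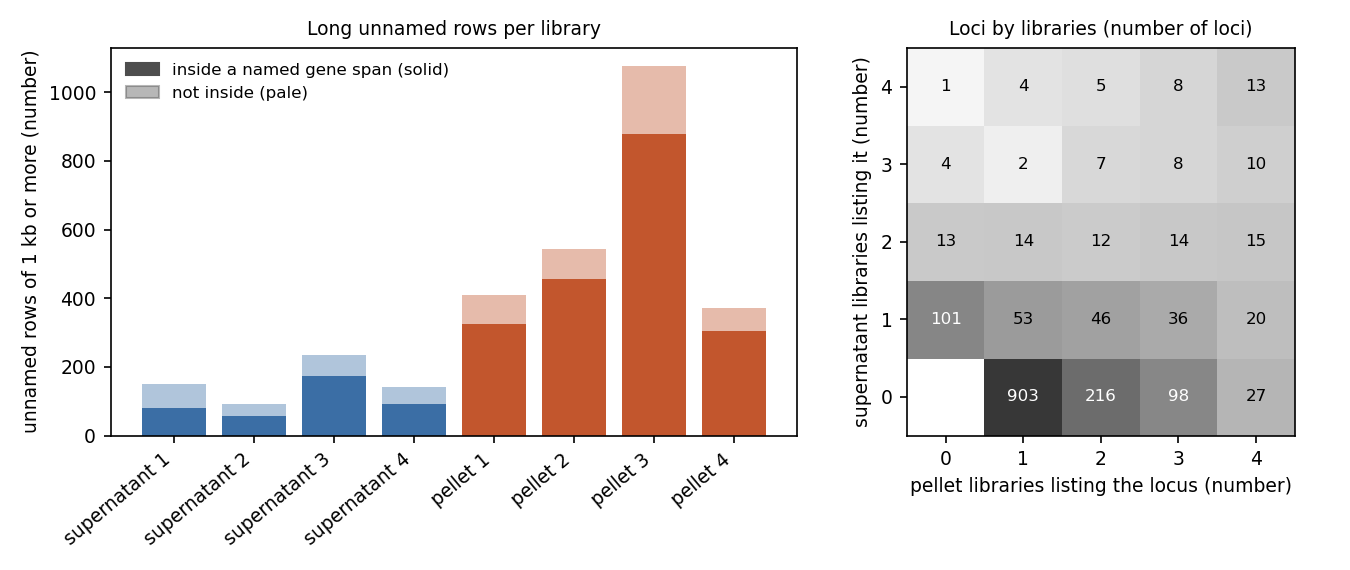
Left, the number of unnamed rows of 1 kb or more in each library, with rows inside a named gene span solid and the others pale. Right, the number of loci by how many pellet (horizontal) and supernatant (vertical) libraries list them; 903 loci stand in 1 pellet and no supernatant, and 13 in all 8 libraries.

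Few loci recurred. Of 1630, 1244 were listed by pellets only, 119 by supernatants only and 267 by both fractions. A single library listed 1004 of them, 903 in a pellet and 101 in a supernatant. Rows of the same library were not matched to each other, so identical or nested stretches can count as separate loci. L0208 and L0209, both at chr2L:21550791-21562930 in pellet 3, are such a case. All 4 pellets listed 85 loci, 65 of them inside genes, and all 4 supernatants listed 31, 14 of them inside genes. There were 27 loci in all 4 pellets and in no supernatant, and 1 locus the other way round. Loci of pellets only lay inside genes in 82.6% of cases, loci of both fractions in 75.3% and loci of supernatants only in 56.3%.

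A locus listed by pellets only was rarely without unnamed RNA in the supernatants. Across the 1244 such loci and 4 supernatants, shorter unnamed rows overlapped the locus in 3748 of 4976 cases (75.3%), covering a median of 41.6% of its length, and no unnamed row was present in 23.0%. Of the 27 loci of all 4 pellets, shorter rows were present in 106 of 108 cases, covering a median of 60.2%. In the 119 loci of supernatants only, pellets listed shorter rows in 43.7% of cases and none in 44.1%. In 84 cases of pellet-only loci and 58 of supernatant-only loci, another long row overlapped the locus. For 45 of the pellet-only and 31 of the supernatant-only loci, no library of the other fraction listed an unnamed row. Absence of a long row is thus not by itself absence of RNA. Whether the joining of reads into 1 row of at least 1000 bp decides which loci are listed was not tested.

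The loci were listed at a few FPKM. Their median was 3.99, 8.17, 4.49 and 5.27 FPKM in supernatants 1 to 4 and 6.56, 5.72, 6.11 and 10.9 FPKM in pellets 1 to 4. Relative to the median of named genes at 1 FPKM or more in the same library, this was 0.558, 1.15, 0.713 and 0.746 in supernatants and 0.608, 0.497, 0.677 and 1.15 in pellets. The ranges overlapped in both scales. The reference and the set of loci matter here: the mean ratio was 0.792 in supernatants and 0.733 in pellets, but 4.69 and 2.86 when all named genes set the median. It was 2.59 and 5.40 over the 13 loci listed in all 8 libraries. The smallest listed value was 0.249 to 0.922 FPKM in supernatants and 0.514 to 1.27 FPKM in pellets, so rows fainter than this are not seen. In 347 rows (11.5%) the lower confidence bound was 0. These were 10, 1, 16 and 4 rows in supernatants 1 to 4 and 43, 79, 146 and 48 rows in pellets 1 to 4. They are part of the counts of long rows given above. A row inside a gene stood at a median of 26.9% to 46.2% of that gene's FPKM in supernatants and of 19.7% to 28.3% in pellets.

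To compare fractions, each library was divided by a factor taken from its named genes (0.654 to 0.736 for supernatants and 1.28 to 1.65 for pellets), and limma was run on log2(scaled FPKM + 0.5) over every feature listed in all 8 libraries with a mean of at least 1. Only 13 of the long loci qualified. Of these 13, 2 were higher and 1 was lower in the pellet at a Benjamini-Hochberg adjusted p under 0.05. Among all 9475 features tested the same test called 1.41% higher and 1.44% lower. The same 3 loci were the ones whose pellets and supernatants did not overlap, 2 above and 1 below, where 7.47% of all features stood apart upward and 7.27% downward. The median log2 difference of the 13 was 0.79 and 10 were above 0, against a median of -0.03 over all features. With the values as deposited and no scaling, 8 of the 13 were called higher and 0 lower, where 48.6% and 0.417% of all features were called, since the median of all features then moved to 0.88.

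The largest difference was at L0979, a 3047 bp locus at chr3R:23913471-23916517. It lies 1724 bp from CG34362, and CG34354 follows on the other side. The RefSeq annotation of the later assembly Release 6 places a pair of long noncoding RNA genes, lncRNA:CR46077 and lncRNA:CR46076, between these neighbours. Its scaled level was 38.1, 113, 41.4 and 38.1 FPKM in supernatants 1 to 4 and 270, 209, 337 and 463 FPKM in pellets 1 to 4. Supernatant 2 was the highest of its fraction and still below every pellet. The log2 difference was 2.57 (SE 0.41, limma adjusted p = 0.0177, and 0.0458 with the replicate number as a block). CG34362 itself was at a mean of 31.2 in supernatants and 55.2 in pellets (log2 difference 0.86, limma adjusted p = 0.242, and 0.0426 with the block), and CG34354 at 7.7 and 13.3 (0.71, limma adjusted p = 0.408, and 0.0733 with the block).

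L0494 at chr3L:5642699-5643822 spans 1124 bp, 320 bp from Blimp-1, a zinc-finger transcription factor, and before lin-28, which encodes an RNA-binding protein. Its scaled level was 21.9, 17.2, 29.4 and 18.9 FPKM in supernatants and 63.0, 52.2, 64.4 and 49.2 FPKM in pellets. Every pellet stood above every supernatant, and both groups were tight. The log2 difference was 1.39 (SE 0.21, limma adjusted p = 0.0145, and 0.0172 with the block). Blimp-1 was at 25.3 and 36.04 scaled FPKM in supernatants and pellets (log2 difference 0.54, limma adjusted p = 0.380), and lin-28 at 1.52 and 0.965 (-0.56, limma adjusted p = 0.405). Both calls were lost when single libraries were left out. Without supernatant 1 or supernatant 4 no long locus was called by limma, with an adjusted p of up to 0.0659 for L0979 and 0.0572 for L0494. The log2 differences were then 2.43 and 2.43 for L0979 and 1.40 and 1.33 for L0494. Calls over all features fell in the same settings, from 134 higher and 136 lower to 39 and 66 without supernatant 1. Without supernatant 4 they fell to 45 and 68. Without pellet 3, L0979 also missed the threshold (limma adjusted p = 0.0512).

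L0240 was the locus lower in the pellet. It spans 6101 bp at chr2R:936722-942822, between the ionotropic receptor gene Ir41a and TpnC41C, which encodes a troponin C of muscle and lies 9919 bp away. Release 6 places lncRNA:CR44105 between these genes. The scaled level was 31.6, 42.0, 52.6 and 51.7 FPKM in supernatants and 11.3, 15.8, 26.6 and 14.0 FPKM in pellets. All supernatants stood above all pellets. The log2 difference was -1.41 (SE 0.29, limma adjusted p = 0.0469, and 0.0267 with the block), and this call held in 7 of the 19 settings in which the locus was tested, against 16 of 19 for L0979 and 17 of 19 for L0494. With single libraries left out, the adjusted p of L0240 by limma ran from 0.0259 to 0.136. TpnC41C, its neighbour, had a log2 difference of 0.69 (limma adjusted p = 0.405).

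**Figure D2:**
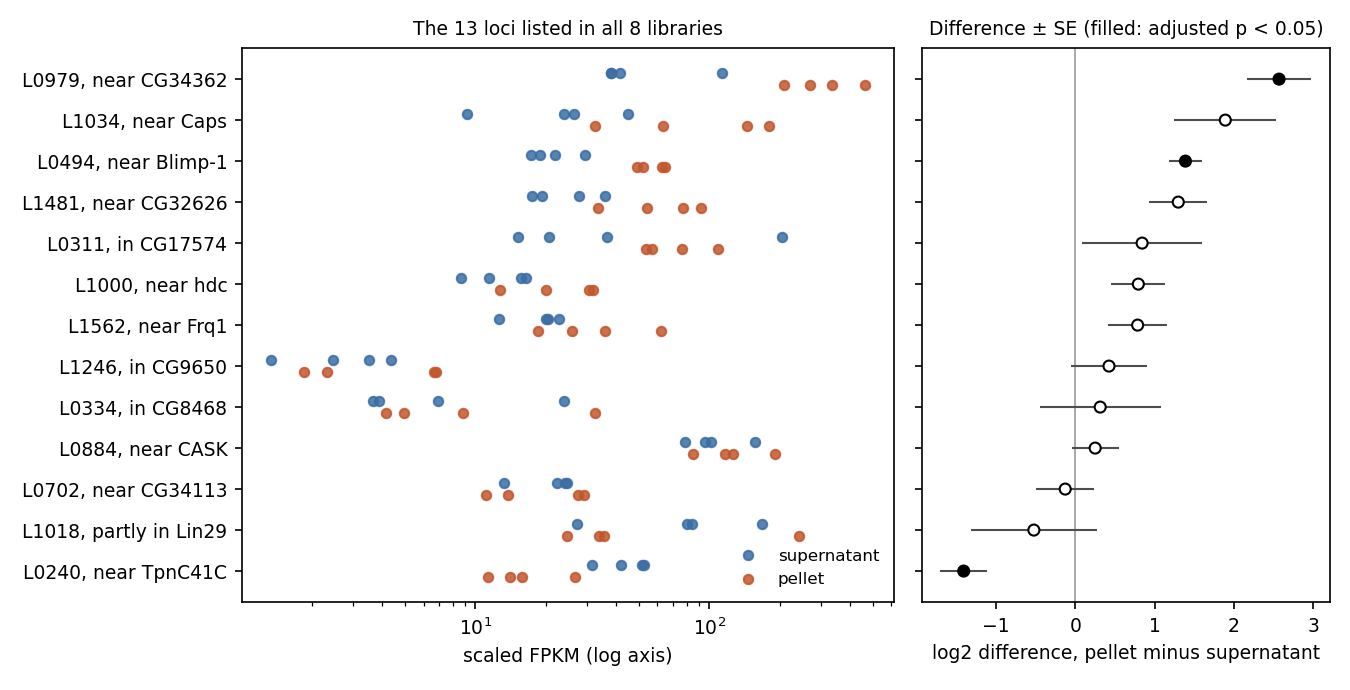
Left, scaled FPKM (log axis) of the 13 loci listed in all 8 libraries, 1 point per library, supernatants blue and pellets orange. Right, the log2 difference of pellet minus supernatant with its standard error; filled points passed an adjusted p of 0.05, which are L0979 at 2.57, L0494 at 1.39 and L0240 at -1.41.

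The other 10 loci did not pass that test. With the replicate number as a block, 5 loci were called higher and 1 lower, where 5.01% and 5.59% of all features were called. The 3 loci added by the block were L1034, L1481 and L1000.

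L1034, of 15208 bp at chr4:1284972-1300179, lies 9486 bp beyond Caps, a gene for a protein of dense-core vesicle release, and no named gene follows it. It stood at 9.19, 23.9, 45.1 and 26.4 scaled FPKM in supernatants and 32.3, 63.5, 145 and 179 in pellets, so each pellet was above the supernatant of its number while the groups overlapped (log2 difference 1.89, SE 0.64, limma adjusted p = 0.157, and 0.0296 with the block). L1481, of 2082 bp at chrX:13740162-13742243, begins 267 bp from CG32626. It stood at 17.4, 19.3, 35.96 and 27.7 in supernatants and 54.2, 33.5, 77.1 and 92.2 in pellets, again higher in each pair (log2 difference 1.30, SE 0.36, limma adjusted p = 0.109, and 0.0352 with the block). Its neighbour CG11071 had a log2 difference of 1.42 (limma adjusted p = 0.0640, and 0.0156 with the block), and CG32626 one of 0.06 (limma adjusted p = 0.921).

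L1000, of 2710 bp at chr3R:26194666-26197375, lies between hdc (headcase) and Fer1HCH, the ferritin heavy chain gene. Its scaled level was 11.5, 8.70, 16.5 and 15.6 FPKM in supernatants and 20.003, 12.7, 30.7 and 31.8 FPKM in pellets (log2 difference 0.79, SE 0.34, limma adjusted p = 0.240, and 0.0362 with the block). The locus listed by all 4 supernatants and no pellet, L1001 at chr3R:26196742-26198095, overlaps its end. L1001 stood at 4.11, 4.06, 8.76 and 7.30 scaled FPKM there. The same gap between hdc and Fer1HCH thus gave a long row in both fractions and an overlapping one listed by supernatants only. All 4 pellets list L1000 over a part of L1001, so this does not show RNA that pellets lack.

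Among the remaining loci of all 8 libraries the fractions overlapped. L0884, of 1318 bp at chr3R:17609130-17610447 and 576 bp from CASK, which encodes a synaptic scaffold protein, was the most abundant after L0979. It stood at 95.9, 78.6, 157 and 102 scaled FPKM in supernatants and 117, 85.2, 192 and 127 in pellets (log2 difference 0.25, SE 0.30, limma adjusted p = 0.668). CASK had means of 92.5 ± 9.94 and 315 ± 289 (SD), so its pellet libraries differed widely (log2 difference 1.40, limma adjusted p = 0.176). L1562, of 1807 bp at chrX:18066066-18067872, lies between the frequenin genes Frq1 and Frq2, which encode neuronal calcium sensors, and was at means of 18.9 and 35.7 (log2 difference 0.79, limma adjusted p = 0.283).

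The other loci longer than 5 kb overlapped between fractions. L1018, of 20145 bp at chr4:402970-423114, overlaps the gene Lin29 in part and stood at 27.3, 84.2, 80.3 and 167 scaled FPKM in supernatants and 33.8, 24.6, 35.4 and 242 in pellets (log2 difference -0.52, SE 0.80, limma adjusted p = 0.746). L0702, of 19230 bp at chr3R:1765517-1784746 between CG34113 and CG11373, had means of 21.1 and 20.4 (log2 difference -0.13, limma adjusted p = 0.874). Both had the opposite sign when the deposited values were used unscaled. L0311, of 5546 bp at chr2R:8749835-8755380 inside CG17574, stood at 15.1, 20.7, 206 and 36.7 in supernatants, where supernatant 3 was far above the others, and at 53.6, 57.0, 109 and 76.1 in pellets (log2 difference 0.84, limma adjusted p = 0.556). A separate long row, L0310 at chr2R:8749834-8751297, overlaps its start. L0310 was listed in supernatants 1, 2 and 4 (61.7, 52.9 and 161 unscaled FPKM) and in pellets 1 and 4 (48.3 and 102), but not in supernatant 3. The stretch was thus cut into rows differently between libraries, and the part of this in the values of L0311 was not tested.

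A pair of short loci inside genes completes the 13. L1246, of 1157 bp at chrX:7117775-7118931 inside CG9650, had means of 2.91 and 4.39 (log2 difference 0.42, limma adjusted p = 0.649), while CG9650 itself rose in the pellet (1.17, limma adjusted p = 0.0328). L0334, of 1272 bp at chr2R:10111319-10112590 inside CG8468, had means of 9.56 and 12.6 (0.31, limma adjusted p = 0.850). CG8468 was listed at 0 in the supernatants, so no fold is given for it.

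A wider set takes every locus with a value in at least 2 libraries of each fraction, which includes the 13. Of these 92 loci, 75 had a positive log2 difference (81.5%), with a median of 0.53. Over all 13652 features so tested the median was -0.02. Most of the long rows come from pellets, so this set was chosen in part by the pellet libraries. Its signs and medians describe it and test nothing. The 64 inside genes had a median of 0.56 with 56 positive, and the 28 elsewhere a median of 0.38 with 19 positive. In this setting the 2 loci that passed as higher by limma were again L0979 (adjusted p = 0.0364) and L0494 (adjusted p = 0.0380), and 0 passed as lower, where 0.381% and 0.557% of all features passed, and 19 of the 92 had an unadjusted p under 0.05. For 62 of the loci inside genes the gene was tested as well. These loci had a median log2 difference of 0.52 and their genes one of 0.91, and 23 of the 62 loci stood above their gene.

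When a long row was allowed to match unnamed rows of any length, 414 loci could be tested. Of these, 281 had a positive log2 difference, and the median was 0.28, against -0.01 over all 9875 features so tested. Most of the long rows come from pellets, so these loci were chosen in part by the pellet libraries. Their signs and median describe them and test nothing. In this setting limma called 2 of the loci higher and 0 lower, where 1.23% and 1.30% of the 9875 features were called. A total of 48 had an unadjusted p under 0.05. With the replicate block, 12 were called higher and 5 lower, where 4.08% and 4.53% of all features were called. The share of these loci called was thus under that of all features, while the number of long rows differed between fractions as given above.

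The 27 loci of all 4 pellets and no supernatant spanned 1061 to 2350 bp, and 22 lay inside 21 named genes, 11 of these on the X chromosome. Among these genes are para, the voltage-gated sodium channel, Sh, the Shaker potassium channel, Lar, a receptor phosphatase of axons, fra, the netrin receptor, and NetB, a netrin ligand that held 2 of the loci. The others are pum and shep, which encode RNA-binding proteins, the transcription factors br and Camta, the formin gene DAAM, nkd of the Wnt pathway, dpr8 of the immunoglobulin family, the RhoGAP gene cv-c, spri, jvl, Bx and Atg5. The rest carry only annotation numbers: CG42784, CG17839, CG15464 and CG32676. Of the 21 genes or joined features tested, limma called 1 higher, pum (log2 difference 1.33, adjusted p = 0.0181), where 1.52% of named features were called. With the replicate block 7 were higher, where 5.29% of named features were. The genes with a negative difference, fra and CG32676, did not pass with the block (limma adjusted p = 0.645 and 0.885). The genes were picked through their pellet rows, so these counts describe them and test nothing.

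The most abundant of the 27 was L1348, of 1519 bp at chrX:10128636-10130154, 1914 bp from Hk, which encodes a subunit of the Shaker channel. It stood at 89.4, 61.7, 143 and 92.0 scaled FPKM in pellets 1 to 4. The supernatants split the same stretch into shorter rows that covered 75.9% to 92.7% of it, the highest of them at 48.4 to 74.1 unscaled FPKM. With the best-overlapping shorter row of each supernatant in its place, the locus had a log2 difference of 0.12 (SE 0.27, limma adjusted p = 0.838). In replicates 5 and 6, by contrast, its rows were higher in the pellet, by 2.25 and 1.95 on the log2 scale relative to the median matched row.

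**Figure D3:**
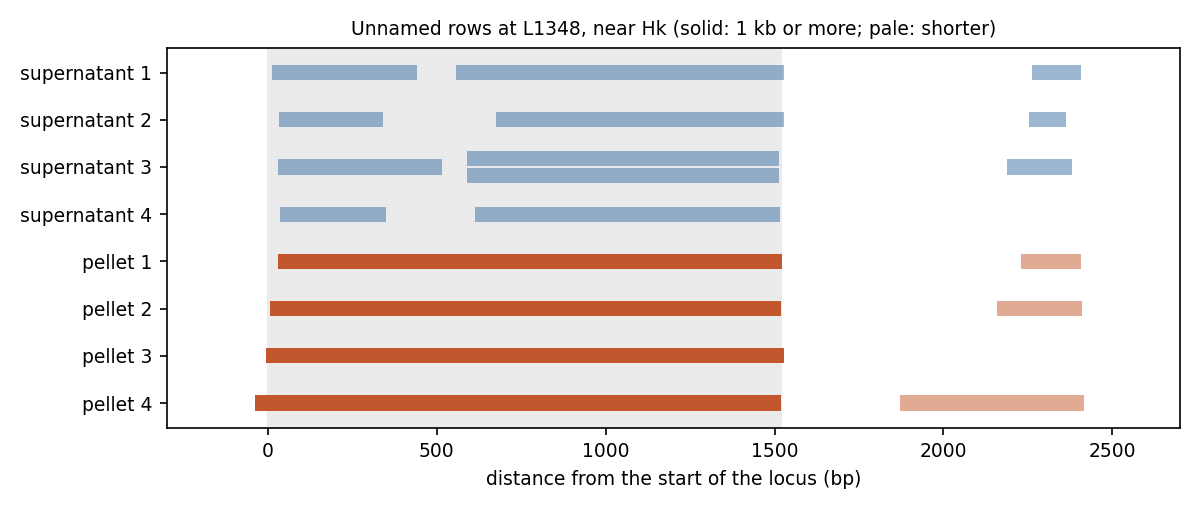
Unnamed rows of each library around L1348, by distance in bp from the start of the locus (grey band, 1519 bp). Rows of 1 kb or more are solid and shorter ones pale; the 4 pellets have 1 long row and the 4 supernatants have at least 2 shorter rows over the same stretch, with 2 entries of the same span in supernatant 3.

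Next in level were L0133 and L1527. L0133, of 1061 bp at chr2L:13487960-13489020 inside CG42784, stood at 39.6, 14.7, 47.2 and 44.1 scaled FPKM in pellets, and in 1 of them the lower confidence bound was 0. Shorter rows covered 78.8% to 89.0% of it in supernatants, and matched to those it had a log2 difference of 0.92 (limma adjusted p = 0.260). L1527, of 1221 bp at chrX:16401828-16403048 inside para, stood at 14.6, 12.7, 23.1 and 43.5. The para gene as a whole had means of 77.8 and 164 in supernatants and pellets (log2 difference 1.08, SE 0.25, limma adjusted p = 0.0687, and 0.0275 with the block).

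Of the 27, 16 could be matched to shorter rows and tested. Their log2 differences ran from -1.36 to 1.35, and the smallest limma adjusted p was 0.164. These loci were picked by their pellet rows, so their signs are not counted here. The lowest was the locus in Sh, L1551, of 1685 bp at chrX:17825710-17827394 (log2 difference -1.36, SE 0.46, limma adjusted p = 0.164, and 0.0473 with the block). Sh was tested only as a feature joined with CG12672, so its own level is not given. The joined feature had a log2 difference of 1.03 (limma adjusted p = 0.119, and 0.0207 with the block).

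The genes around the loci had mostly positive differences themselves. The 1295 loci inside genes lay in 571 genes, of which 332 held 1 locus and 61 held 5 or more, together 499 of the loci (38.5%). These genes form 567 features, 506 of them tested. Of the 506, 40 (7.91%) were higher in the pellet and 0 lower by limma, where the same test called 1.52% and 1.57% of all 8597 named features. With the replicate block 125 were higher and 1 lower, where 5.29% and 6.08% of named features were called. The median log2 difference was 0.70 in these genes against -0.03 in all, and 429 (84.8%) were positive against 47.6%. Since most of the loci come from pellet rows, the genes were chosen in part by the pellet libraries, and these counts describe them and test nothing.

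Span goes with this difference. The genes that hold loci had a median span of 36.4 kb, against 1.96 kb for all named genes. A gene can hold a locus only if it spans at least 1000 bp, so shorter genes were excluded in advance. For 1009 of the loci inside a gene, the shortest gene was known only from an assembled row, whose span can join neighbours. The contrast in span thus tests nothing. Among features of at least 20 kb, the 379 with loci had a median log2 difference of 0.76 (38 higher, 0 lower) and the 416 without had 0.61 (15 higher, 0 lower). Among shorter features, the 127 with loci had a median of 0.43 (2 higher, 0 lower) and the 7675 without had -0.09 (76 higher, 135 lower). Genes with at least 1 supernatant locus, 179 in number, had a median of 0.76, and the 327 with pellet loci only had 0.65. Features of at least 20 kb thus had a positive median with or without such a locus, and the part of span in the result was not tested.

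**Figure D4:**
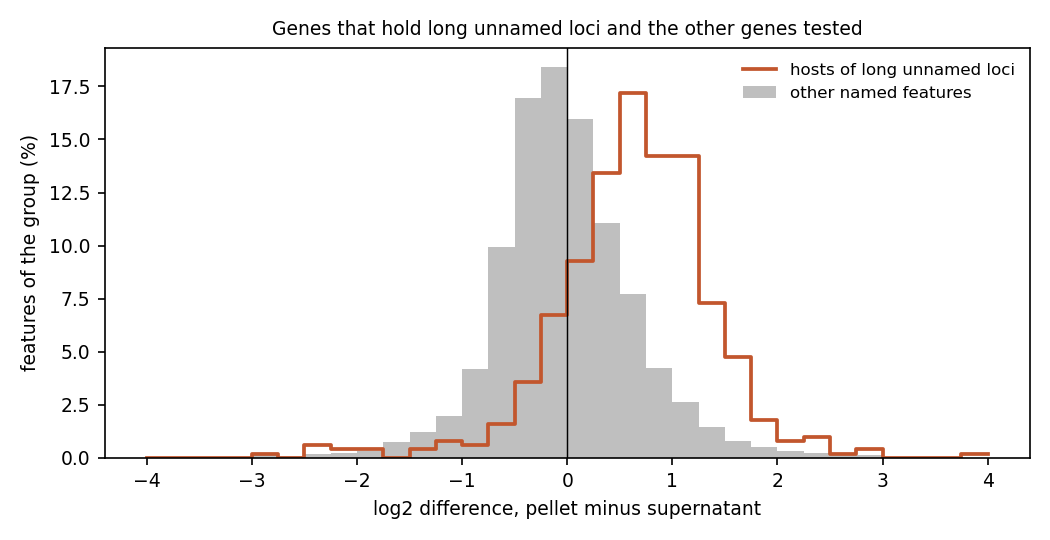
Distribution of the log2 difference of pellet minus supernatant in bins of 0.25, as a percentage of each group. The 506 genes holding long unnamed loci (orange line) have a median of 0.70, and the 8091 other named features (grey) one of -0.07; 15 of the latter lie outside the plotted range.

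The genes with the most loci, listed after the counts were seen, were long and mostly X-linked. First was a joined span of CG15464, CG15465 and rg, which encodes the anchoring protein Rugose, with 27 loci in 166 kb. Supernatants listed 0, 0, 5 and 3 loci there and pellets 7, 10, 17 and 6, and the joined feature had a log2 difference of 1.75 (limma adjusted p = 0.130). Ten-a, a teneurin of synaptic partner matching, held 22 loci in 206 kb, with 1, 2, 5 and 4 in supernatants and 4, 12, 7 and 6 in pellets. Its gene level had a log2 difference of 0.64 (limma adjusted p = 0.338).

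Next came kek5, a leucine-rich repeat membrane protein gene, and Drak, a protein kinase gene, with 15 each. Supernatants listed 0, 0, 1 and 0 loci in kek5 and pellets 9, 8, 10 and 2, and its gene had a log2 difference of 1.04 (limma adjusted p = 0.0557). Drak had one of -0.46 (limma adjusted p = 0.759). The endocytic receptor gene mgl held 14 with a log2 difference of -0.90 (limma adjusted p = 0.206), so neither it nor Drak was above 0. The adhesion gene kirre held 13, Glut4EF and CG42389 12 each, and Sh and dnc, the cAMP phosphodiesterase gene of olfactory memory, 11 each. The zinc-finger gene mamo also held 11, and 9 of these 11 genes with at least 11 loci lie on the X. The 27 genes with 8 or more loci form 26 tested features. Most of the loci come from pellet rows, so these genes were chosen in part by the pellet libraries. The counts of calls thus describe them and test nothing. With the replicate block 11 were higher, where 5.29% of named features were. Without the block, limma called 7 higher and 0 lower, where 1.52% and 1.57% of named features were called. Among the features of at least 20 kb with loci, 10.0% were called higher. The 7 were Lim1, bi and sbb besides CG42389 (1.01, adjusted p = 0.0464), pum (1.33, adjusted p = 0.0181), the homeobox gene hth (1.18, adjusted p = 0.0469) and the nuclear receptor gene Eip75B (1.17, adjusted p = 0.0345).

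The loci were dense on the X chromosome. It held 588 of 1630 loci (36.1%), while it held 15.5% of named genes and 19.4% of the length of gene spans. Per library, 28.7% to 39.7% of the long rows of supernatants and 35.5% to 40.3% of those of pellets lay on the X, so the fractions overlapped. Shorter unnamed rows lay there in 26.7% to 30.0% of cases. Per Mb of gene span, the X held 30.2 loci inside genes, and the other arms held 10.8 (3L) to 13.1 (3R), with 13.1 on chromosome 4. The 133 tested X-linked features with loci had a median log2 difference of 0.57 and the autosomal ones 0.72, a difference that was not tested.

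**Figure D5:**
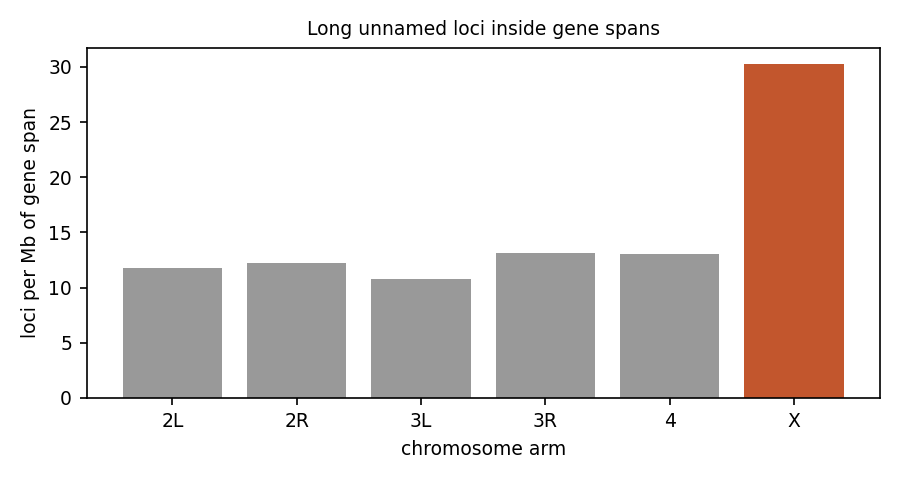
Number of long unnamed loci inside gene spans per Mb of gene span on each chromosome arm. The X chromosome stands at 30.2 and the other arms between 10.8 and 13.1.

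Of the loci outside gene spans, 261 of 293 could be placed between the same neighbouring genes in the RefSeq annotation of Release 6. For 88 of them (33.7%) that annotation holds a gene between the neighbours that the head tables do not name, and in 82 cases at least 1 such gene is a long noncoding or antisense RNA. For 173 it holds none. Over all 3799 gaps of at least 1000 bp between named genes, 758 (19.95%) hold such a gene. The former share counts loci, several of which can lie in the same gap, and the latter counts gaps. Gap length was not matched, so the shares cannot be compared directly. Placement by neighbours does not show that the locus and that gene are the same transcript.

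Replicates 5 and 6 listed a part of the loci. In any of these 4 libraries, 316 loci (19.4%) had a matching row, 16.1% of those inside genes and 32.2% of the others, and 11 of the 13 loci of all 8 libraries did. In replicate 5, 49 loci had a value in both fractions, and 41 of these (83.7%, 95% Wilson interval 71.0% to 91.5%) had a pellet over supernatant ratio above that of the median matched row. In replicate 6 it was 51 of 63 (81.0%, 69.6% to 88.8%). These intervals cover counting of loci only, since loci of 1 library are not replicates.

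By locus, L0979 was higher in the pellet of replicate 5 by 2.40 on the log2 scale relative to the median matched row and was not matched in both fractions of replicate 6. L0240 stood at -0.21 and -0.35 in replicates 5 and 6. L0494 stood at -0.61 in replicate 6, opposite to its direction in replicates 1 to 4, and had no pellet value in replicate 5.

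The libraries carried the cell types of a head. Of the marker genes found, 5 of 5 for neurons, 7 of 8 for photoreceptors, 3 of 4 for glia, 4 of 5 for fat body, 4 of 4 for muscle, 2 of 2 for blood cells and 1 of 4 for germ line were at 1 scaled FPKM or more in all 8 libraries. The summed scaled level of the glial markers was 75.9 to 139 in supernatants and 158 to 245 in pellets, and that of the fat body markers 2775 to 3459 and 1876 to 2339, both without overlap. The sums of the neuronal markers overlapped, at 116 to 532 and 307 to 441. Those of photoreceptors (8830 to 14900 and 8646 to 33430), muscle (379 to 4091 and 343 to 615), blood cells and germ line overlapped as well. The part of cell type makeup in the differences between fractions was not tested.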

How the data were processed

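Per the file headers, the authors deposited FPKM with lower and upper confidence bounds for each gene or assembled locus of a library. The submitters' processing notes name CASAVA 1.9.1, TopHat and Cufflinks and build dm3, without saying how rows were assembled or filtered; read depth is unknown. No row of the loci had a status other than OK.

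Gene spans came from named rows of the same libraries (12464 genes with a FlyBase row, and the shortest assembled row for 3138). Scaling used the median ratio of named genes to their geometric mean. limma 3.58.1 in R 4.3.3 was run two-sided with a mean-variance trend over all 9475 features and Benjamini-Hochberg adjustment. It was tested on simulated data. Fold changes on log2(FPKM + 0.5) understate those of low features. Where a locus had several rows in a library, the row with most overlap was used. Counts per library used exact permutation tests, whose arrangements did not keep the pairing of replicate numbers.

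Loci named are those called, the 8 most abundant and 5 longest listed in all 8 libraries, the 3 most abundant of 4 pellets only or 4 supernatants only (1 existed), and rows beside the length limit; the other loci of all 8 libraries, the loci of 4 pellets and the genes with most loci were added after values were seen. Same-numbered pellet and supernatant deviated together (correlations across features of 0.167, 0.193, 0.326 and 0.199, with 0.143 the highest for any other number), so the numbers were taken to pair the libraries, from the data alone. Members and lists were chosen with earlier results of these data known. Of 15602 genes, 15378 matched Release 6 (used for names and neighbours only). Tables and figures used Python 3.11.15, pandas 2.3.3, numpy 2.4.6, scipy 1.17.1 and matplotlib 3.10.9. Libraries of S2 cells and crosslinking were not used here.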

Additional observations from a re-analysis of the deposited data

Results flagged for a closer look

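In 7 of 48 groups of 4 libraries, 1 library stood apart from the other 3 by more than Dixon's 95% value (gap divided by range), which chance gives in about 1 of 20 groups. Pellet 3 was highest in the number of long rows outside genes (0.845). Pellet 4 was highest in the median FPKM of long rows (0.838) and in L1018 (0.95). In L0311 supernatant 3, the only supernatant that did not list the overlapping L0310, was highest (0.887). In L0979 supernatant 2 was highest (0.957). In L0334 pellet 3 was highest among pellets (0.834) and supernatant 4 among supernatants (0.838). The causes were not tested.

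A further value was noticed after values were seen. L1015, of 2243 bp at chr4:236702-238944 inside CG31999, was listed at 12783 FPKM in supernatant 4 and as a long row in no other library of replicates 1 to 4. It was listed at 6.70 FPKM in pellet 5.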

How the results depend on the processing

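The 3 called loci became 8 with the values as deposited (where the median of all features moved to 0.88 on the log2 scale and 48.6% of features were higher), 1 with 80% reciprocal overlap (5 loci tested), and 0 to 2 when a library was left out. With the replicate block, which rests on the pairing of numbers, they became 6, and 17 when rows of any length were matched as well (chosen after seeing the data). Other pseudocounts, filters, normalization, no variance trend and the narrower fit gave 2 or 3. Of 233 values of the 13 loci under alternatives, 202 kept direction and side of the threshold, 17 lost and 9 gained a call, and 5 reversed: L0334 without pellet 3 (-0.29), L0702 as deposited (0.86), without pellet 1 (0.12) and without pellet 2 (0.02), its range with a library left out being -0.34 to 0.12, and L1018 as deposited (0.49). The difference in rows per library was 1670 at 500 bp or more (exact permutation p = 0.0571), 55.5 for rows not inside genes, chosen after seeing the data, and 287.5 to 522 when a library was left out; it passed at 2000 bp or more, at 1 FPKM or more and inside genes. The difference between fractions in the level relative to named genes was -0.06; it was 2.80 over the loci of all 8 libraries and -1.83 against all named genes. In replicate 5 the share of loci above the median row fell to 69.2% of 13 at 80% overlap. The causes were not tested. Short assemblies limit which loci can be compared at all.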
